A study of Mus musculus with 12 samples.

Results

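Amino acid transporters are the membrane proteins that bring amino acids into a cell and move them between its compartments. A set of 10 such mouse genes, chosen with earlier results of these data known, was followed here. By symbol, all 10 were found among the 55487 gene identifiers of the count table. The cells were CD8+ T cells taken from the splenocytes of C57BL/6 mice and kept with a cytokine. Group 1 was labelled IL-12 80%TCM, group 2 IL-12, group 3 IL-2 80%TCM and group 4 IL-2, with 3 libraries in each of the 4 groups. Each library thus came from cells that had received either IL-12 or IL-2, with or without an addition written as 80%TCM. The labels do not spell out TCM, and the title of the study speaks of tumor-like conditions. They give no untreated cells, no age, dose or time, and leave it unsaid if replicates are different animals or cultures. The p-values below therefore set each difference against the spread between these libraries, which may be technical.

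A T cell that starts to divide raises its uptake of glutamine, leucine, arginine and other amino acids, which it needs for protein and nucleotide synthesis. Slc7a5 (LAT1) is a light chain that exchanges large neutral amino acids such as leucine, and it reaches the cell surface bound to the heavy chain Slc3a2 (CD98). Slc7a6 (y+LAT2) is another light chain of Slc3a2, and Slc43a1 (LAT3) carries large neutral amino acids by facilitated diffusion without a heavy chain. Slc7a1 (CAT1) brings in arginine and lysine. Slc1a4 (ASCT1) and Slc1a5 (ASCT2) are sodium-dependent exchangers of small neutral amino acids, the second also of glutamine. Slc38a1 (SNAT1) and Slc38a2 (SNAT2) take up glutamine and alanine with sodium. Slc38a9 sits in the lysosome membrane, where it senses arginine for mTORC1, the kinase complex that couples growth to nutrients.

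The libraries held 19500568 to 26007717 counts each, except for replicates 1 and 2 of IL-12, which held 49638920 and 42349121. Levels are given in CPM, the counts of a gene per 1000000 of a library size scaled by TMM. The T cell genes Cd8a and Cd3e stood at 813 to 1365 and 248 to 366 CPM over the 12 libraries, while Cd4 stood at 0.444 to 4.55 and Lyz2 at 0.184 to 1.09 CPM. Replicate 3 of IL-2 80%TCM and replicate 3 of IL-2 stood apart from the other libraries. All 26 listed genes of glycolysis and the hypoxia response were highest in replicate 3 of their group, in IL-2 80%TCM and in IL-2 alike. Their summed level was 25852 CPM in replicate 3 against 8292 and 8549 CPM in replicates 1 and 2 of IL-2 80%TCM, and 22730 CPM against 7911 and 8088 CPM in IL-2. In the IL-12 groups this sum stayed between 13720 and 15697 CPM for IL-12 80%TCM and between 11322 and 12115 CPM for IL-12. Transporter calls that changed without these 2 libraries, the replicate 3 pair below, are given with and without them. List counts are from all 12 libraries unless stated.

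The promoters of Slc38a2, Slc38a9 and Slc43a1 are shown because these genes had the largest differences between the cytokines among the 10. Each is the stretch of 250 bases before the transcription start, from RefSeq on GRCm38.p6, 5′ to 3′ on the strand of the gene. Slc38a2 lies on chr15:96699729-96699978, minus strand, Slc38a9 on chr13:112660516-112660765, plus strand, and Slc43a1 on chr2:84840073-84840322, plus strand. Capitals mark a match to TTCNNNGAA in Slc38a9, the form of sequence that STAT proteins bind, and a match to CACGTG in Slc43a1, the E-box that MYC and related proteins bind.
Slc38a2: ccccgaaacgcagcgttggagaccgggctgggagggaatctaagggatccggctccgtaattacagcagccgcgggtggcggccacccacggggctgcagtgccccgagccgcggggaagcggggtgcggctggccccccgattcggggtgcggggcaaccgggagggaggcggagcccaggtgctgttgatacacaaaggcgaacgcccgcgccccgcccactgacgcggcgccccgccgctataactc
Slc38a9: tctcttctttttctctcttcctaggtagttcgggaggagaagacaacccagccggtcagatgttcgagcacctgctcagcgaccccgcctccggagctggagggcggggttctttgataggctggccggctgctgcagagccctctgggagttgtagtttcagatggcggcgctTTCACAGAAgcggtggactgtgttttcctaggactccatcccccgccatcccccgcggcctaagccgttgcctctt
Slc43a1: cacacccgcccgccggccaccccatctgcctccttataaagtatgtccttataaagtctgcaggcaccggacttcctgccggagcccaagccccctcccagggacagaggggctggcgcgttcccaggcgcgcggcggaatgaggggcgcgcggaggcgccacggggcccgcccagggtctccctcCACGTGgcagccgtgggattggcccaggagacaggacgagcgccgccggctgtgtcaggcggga

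The match in Slc38a9 began 76 bases before the start and that in Slc43a1 64 bases before it. On either strand CACGTG, TGATGNAA (the core of amino acid response elements) and TTCNNNGAA were searched for in these windows, and no match overlapped another. Over all 32851 RefSeq windows of the same length, 6.02% held CACGTG, 3.45% held TGATGNAA and 7.02% held TTCNNNGAA. Windows were at hand for 7 of the 10 genes, 9 windows in all. CACGTG stood in 1 of these genes, TTCNNNGAA in 2 (Slc38a9 and, 146 bases before a start, Slc7a1), and TGATGNAA in 0. These are matches of letters in a short window and say nothing about binding.

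The 10 mRNAs differed widely in abundance. Per kilobase of annotated exon (GENCODE M21), the mean level over the 12 libraries was highest for Slc1a5 at 44.0 CPM per kilobase. Slc7a5 followed at 34.2, Slc38a2 at 31.2 and Slc3a2 at 28.0 CPM per kilobase. Slc38a1 had 17.5, Slc7a6 12.3 and Slc7a1 9.96 CPM per kilobase. The lowest were Slc38a9 at 2.7, Slc43a1 at 1.26 and Slc1a4 at 0.845 CPM per kilobase. Slc38a9 has 16.7 kilobases of annotated exon and stood at 30.1 to 61.6 CPM, while Slc43a1 and Slc1a4 reached at most 17.1 and 5.26 CPM. The lowest raw count of any of the 10 in any library was 32, for Slc43a1 in IL-12 80%TCM, so all 10 passed the filter on low counts and were among the 15897 genes tested.

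**Figure D1:**
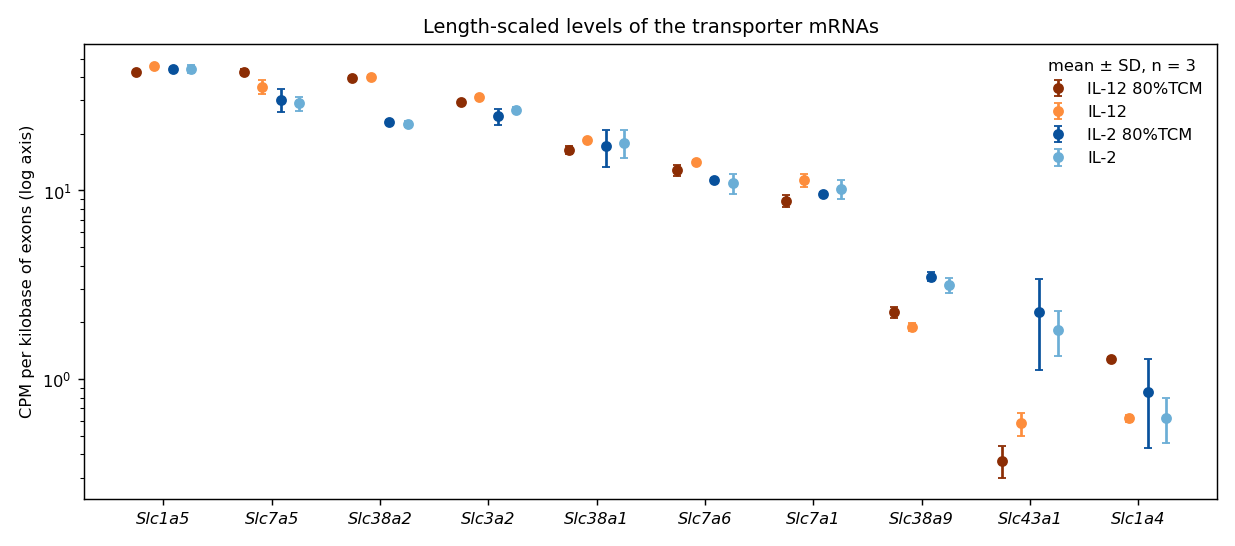
Mean level ± SD (n = 3 libraries) of each transporter mRNA in CPM per kilobase of exons, on a log axis, with 1 point for each group. Slc1a5 is the highest at 42.4 to 45.6 CPM per kilobase in the 4 groups, and Slc43a1 has the widest range, 0.37 CPM per kilobase in IL-12 80%TCM and 2.26 in IL-2 80%TCM.

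The choice of cytokine gave the largest differences. Slc38a2 was higher with IL-12 than with IL-2, Slc38a9 and Slc43a1 were lower, and Slc7a5 and Slc3a2 were modestly higher, each with and without TCM. Without TCM, 6 of the 10 genes passed the test between IL-12 and IL-2 (adjusted p below 0.05, edgeR quasi-likelihood test over all genes), 4 higher and 2 lower, where 45.1% of all genes tested did (22.1% higher, 23.0% lower). With TCM, 5 of the 10 passed, 3 higher and 2 lower, beside 39.0% of all genes (19.5% higher, 19.4% lower). Both shares are close to those of all genes. Under upper-quartile scaling all genes split into 14.7% higher and 25% lower with TCM and 16.3% higher and 28.5% lower without TCM, and the 10 into 3 and 3 with TCM and 2 and 2 without. The median log2 fold change of the 10 was 0.06 with TCM and 0.09 without TCM, and that of all genes tested was -0.009 and -0.008. In the TMM-scaled, filtered fit of all 12 libraries with no block, addition of TCM gave fewer calls. In the IL-12 groups 3 of 10 were called, 2 higher and 1 lower, beside 29.0% of all genes (14.8% higher, 14.2% lower). A fit with replicate number as a block in the IL-2 groups called 7 of 10 there, beside 42.0% of all genes. That order of calls did not hold with only the groups compared in the fit. It then called 8 of 10 with TCM in IL-12, beside 48.9% of all genes. Between the cytokines it called 5 with TCM and 6 without TCM, beside 34.8% and 46.9% of all genes. The median with TCM was -0.10 in IL-12 for the 10 genes and 0.011 for all genes, and 0.05 and 0.004 in IL-2. In the IL-2 groups 0 of 10 were called, beside 14.5% of all genes (6.73% higher, 7.82% lower). In bulk RNA of a culture, a change in the number of cells that make an mRNA and a change in its amount per cell cannot be told apart.

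**Figure D2:**
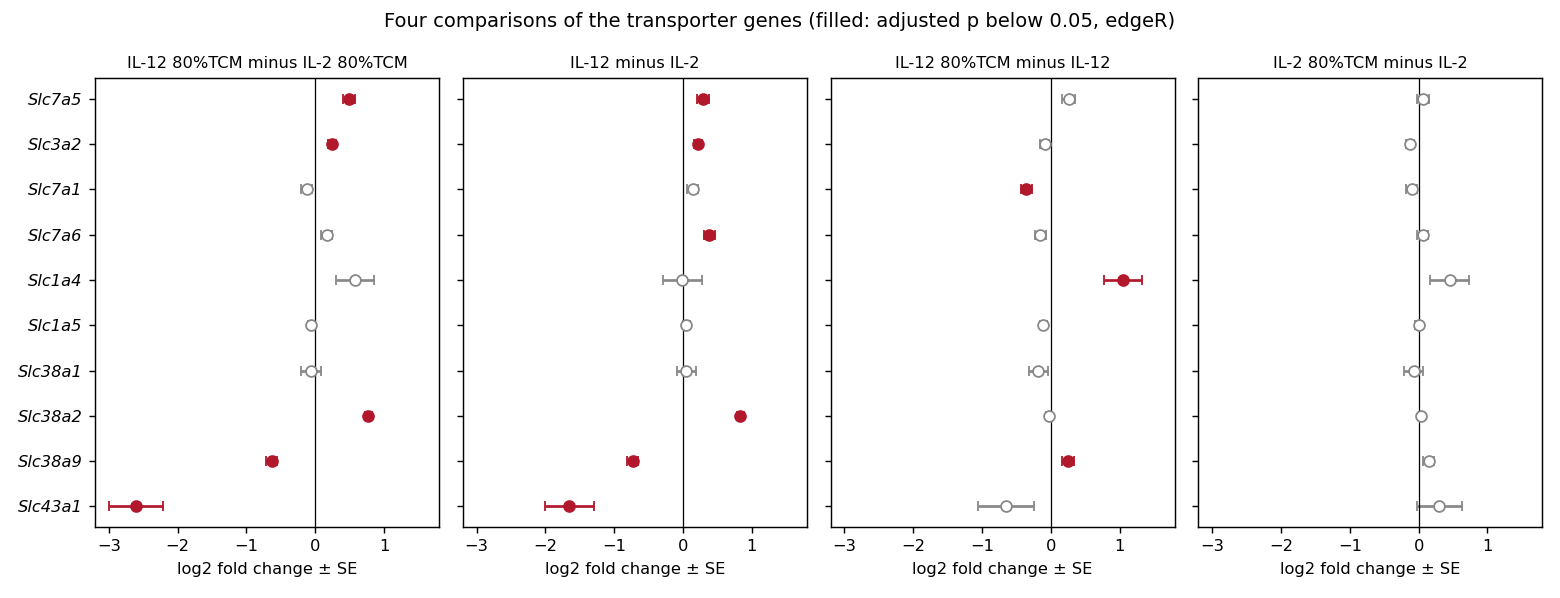
Log2 fold change ± SE of the 10 transporter genes in the comparisons of IL-12 80%TCM with IL-2 80%TCM, IL-12 with IL-2, IL-12 80%TCM with IL-12, and IL-2 80%TCM with IL-2 (n = 3 libraries a group; filled points have an adjusted p below 0.05). Slc43a1 and Slc38a9 lie to the left and Slc38a2 to the right of 0 in both cytokine comparisons, while no point is filled in the comparison of IL-2 80%TCM with IL-2.

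Slc38a2, the glutamine and alanine transporter that many cells induce on amino acid shortage, was the member with the smallest adjusted p. It had 357, 344 and 340 CPM in IL-12 80%TCM and 357, 359 and 346 CPM in IL-12, against 199, 205 and 208 CPM in IL-2 80%TCM and 201, 192 and 204 CPM in IL-2. All 6 IL-12 libraries lay above all 6 IL-2 libraries, and within each cytokine the libraries with and without TCM overlapped. The level was 1.70-fold higher in IL-12 80%TCM than in IL-2 80%TCM (log2 fold change 0.77 ± 0.05 SE, adjusted p = 1.9e-08). Without TCM it was 1.78-fold higher in IL-12 than in IL-2 (log2 fold change 0.83 ± 0.05 SE, adjusted p = 1.1e-08). With TCM against without, the log2 difference was -0.03 ± 0.04 in IL-12 and 0.04 ± 0.04 in IL-2 (adjusted p = 0.67 and 0.65). Replicate 3 of the IL-2 groups did not stand apart for this gene.

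Slc38a1, the other SNAT transporter of glutamine, did not share that pattern. It had 295, 270 and 283 CPM in IL-12 80%TCM and 321, 320 and 318 CPM in IL-12, against 334, 327 and 220 CPM in IL-2 80%TCM and 339, 340 and 248 CPM in IL-2. The lowest values were those of replicate 3 of the 2 IL-2 groups, which lay below every IL-12 library. The gene passed in neither comparison of the cytokines with all 12 libraries, with log2 differences of -0.06 ± 0.14 with TCM and 0.05 ± 0.14 without TCM for IL-12 against IL-2 (adjusted p = 0.78 and 0.80). With TCM in IL-12 it was called lower with replicate number as a block (log2 fold change -0.18, adjusted p = 0.0037) and with no filter on low counts (-0.19, adjusted p = 0.038), though not in the fit without these changes. With the replicate 3 pair left out, it was lower in IL-12 80%TCM than in IL-2 80%TCM (log2 fold change -0.25, adjusted p = 3.1e-05) and lower in IL-12 80%TCM than in IL-12 (log2 fold change -0.19, adjusted p = 0.00024).

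Slc38a9, the lysosomal arginine sensor, ran opposite to Slc38a2 between the cytokines. It had 35.0, 37.8 and 40.4 CPM in IL-12 80%TCM and 30.1, 33.2 and 32.0 CPM in IL-12, against 61.6, 58.2 and 55.6 CPM in IL-2 80%TCM and 48.2, 52.1 and 57.6 CPM in IL-2. The 6 IL-12 libraries lay below the 6 IL-2 libraries, and the IL-12 libraries with TCM lay above those without. The level was 1.55-fold lower in IL-12 80%TCM than in IL-2 80%TCM (log2 fold change -0.63 ± 0.08 SE, adjusted p = 2.4e-05) and 1.66-fold lower in IL-12 than in IL-2 (log2 fold change -0.73 ± 0.08 SE, adjusted p = 6.2e-06). With TCM it rose 1.19-fold in IL-12 (log2 fold change 0.25 ± 0.08 SE, adjusted p = 0.028). Omission of replicate 1 or 3 of IL-12, or of replicate 2 or 3 of IL-12 80%TCM, ended that call (adjusted p = 0.13, 0.066, 0.08 and 0.14), as did limma with no filter on low values (adjusted p = 0.077). In IL-2 the difference with TCM was 0.15 ± 0.08 on the log2 scale (adjusted p = 0.20) with all libraries, and 0.25 (adjusted p = 0.0065) without the replicate 3 pair.

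Slc43a1, the facilitative carrier of large neutral amino acids, had the widest span of the 10, with group means that differed up to 6.10-fold. It had 2.47, 1.67 and 2.20 CPM in IL-12 80%TCM and 2.85, 3.78 and 3.37 CPM in IL-12, against 16.2, 17.1 and 5.38 CPM in IL-2 80%TCM and 11.5, 12.6 and 7.24 CPM in IL-2. Every IL-2 library was above every IL-12 library, and replicate 3 was the lowest of its group in IL-2 80%TCM and in IL-2. The level was 6.08-fold lower in IL-12 80%TCM than in IL-2 80%TCM (log2 fold change -2.60 ± 0.39 SE, adjusted p = 0.00014) and 3.14-fold lower in IL-12 than in IL-2 (log2 fold change -1.65 ± 0.35 SE, adjusted p = 0.002). With TCM the log2 difference was -0.65 ± 0.41 in IL-12, where the libraries did not overlap, and 0.30 ± 0.33 in IL-2, where they did (adjusted p = 0.26 and 0.59). The difference in IL-12 was called with replicate number as a block (-0.65, adjusted p = 0.015) and with no filter on low counts (-0.67, adjusted p = 0.0026).

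Once the replicate 3 pair was left out, Slc43a1 fell with TCM in IL-12 (log2 fold change -0.66, adjusted p = 0.0016) and rose with TCM in IL-2 (0.47, adjusted p = 0.0053). The difference between these effects was then -1.13 on the log2 scale (adjusted p = 0.00032), and it was -0.96 ± 0.52 (adjusted p = 0.43) with all libraries. With all libraries it was called in the fit that blocks on replicate number in the IL-2 groups (-0.89, adjusted p = 0.025) and with no filter on low counts (-0.98, adjusted p = 0.0023). Without replicate 3 of IL-2 80%TCM alone it was -1.34 (adjusted p = 0.015), and the effect in IL-2 was 0.68 (adjusted p = 0.025). The largest adjusted p over all alternatives was 0.73.

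The heavy chain Slc3a2 and its light chains moved modestly. Slc7a5 had 158, 151 and 163 CPM in IL-12 80%TCM and 144, 126 and 123 CPM in IL-12, against 102, 104 and 129 CPM in IL-2 80%TCM and 104, 118 and 99.8 CPM in IL-2. The IL-12 80%TCM libraries were above all others, and the IL-12 libraries lay above those of IL-2 and overlapped those of IL-2 80%TCM. The level was 1.40-fold higher in IL-12 80%TCM than in IL-2 80%TCM (log2 fold change 0.49 ± 0.09 SE, adjusted p = 0.0011) and 1.22-fold higher in IL-12 than in IL-2 (log2 fold change 0.29 ± 0.09 SE, adjusted p = 0.022). The second call was lost under upper-quartile scaling (adjusted p = 0.082) and without replicate 1 or 3 of IL-2 or replicate 1 of IL-12 (adjusted p = 0.057, 0.075 and 0.11).

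With TCM in IL-12, Slc7a5 differed by 0.26 ± 0.09 on the log2 scale, just outside the threshold (adjusted p = 0.053), although the libraries did not overlap. In IL-2 the difference was 0.06 ± 0.09 (adjusted p = 0.72). Without the replicate 3 pair, Slc7a5 rose with TCM in IL-12 (log2 fold change 0.25, adjusted p = 0.00029), and the difference between the effects in IL-12 and IL-2 was 0.35 (adjusted p = 0.0044), against 0.20 ± 0.13 (adjusted p = 0.54) with all 12 libraries. The rise with TCM in IL-12 was also called in the fit blocked on replicate number (adjusted p = 0.0072), by DESeq2 (0.038) and under upper-quartile scaling (0.036).

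Slc3a2 had 103, 106 and 102 CPM in IL-12 80%TCM and 111, 113 and 107 CPM in IL-12, against 80.9, 83.4 and 96.7 CPM in IL-2 80%TCM and 94.9, 91.7 and 97.2 CPM in IL-2. All IL-12 libraries were above all IL-2 libraries. The level was 1.19-fold higher in IL-12 80%TCM than in IL-2 80%TCM (log2 fold change 0.25 ± 0.06 SE, adjusted p = 0.0077) and 1.17-fold higher in IL-12 than in IL-2 (log2 fold change 0.22 ± 0.06 SE, adjusted p = 0.012). Upper-quartile scaling ended the second call (adjusted p = 0.084). With TCM the log2 difference was -0.09 ± 0.06 in IL-12 and -0.12 ± 0.06 in IL-2 (adjusted p = 0.30 and 0.24), and without the replicate 3 pair it was -0.11 and -0.18 (adjusted p = 0.037 and 0.0095). Omission of replicate 3 of IL-2 80%TCM alone gave -0.19 in IL-2 (adjusted p = 0.021).

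The balance of the LAT1 chains was looked at after these values were seen and is described without a test. Per kilobase, the ratio of the Slc7a5 to the Slc3a2 level was 1.46, 1.36 and 1.52 in IL-12 80%TCM, 1.23, 1.07 and 1.09 in IL-12, 1.21, 1.18 and 1.27 in IL-2 80%TCM and 1.05, 1.22 and 0.977 in IL-2. The IL-12 80%TCM ratios lay above those of the other 9 libraries, which overlapped. For the other light chain, the ratio of Slc7a6 to Slc3a2 averaged 0.436 ± 0.0287 in IL-12 80%TCM, 0.453 ± 0.00335 in IL-12, 0.464 ± 0.0511 in IL-2 80%TCM and 0.408 ± 0.0591 in IL-2 (SD, n = 3 each).

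Slc7a6, the light chain that exchanges cationic for neutral amino acids, had 62.4, 58.3 and 54.6 CPM in IL-12 80%TCM and 65.8, 65.5 and 62.9 CPM in IL-12, against 52.2, 52.7 and 50.8 CPM in IL-2 80%TCM and 53.9, 52.9 and 42.8 CPM in IL-2. Each IL-12 library was above each IL-2 library. Without TCM it was 1.30-fold higher in IL-12 than in IL-2 (log2 fold change 0.38 ± 0.08 SE, adjusted p = 0.0018). With TCM the difference between IL-12 and IL-2 was 0.17 ± 0.08 on the log2 scale (adjusted p = 0.11, and 0.028 in the fit blocked on replicate number). With TCM against without, the log2 difference was -0.15 ± 0.08 in IL-12 and 0.06 ± 0.08 in IL-2 (adjusted p = 0.18 and 0.69). The difference in IL-12 was called in the blocked fit (adjusted p = 0.049) and without the replicate 3 pair (-0.16, adjusted p = 0.0082).

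The arginine and lysine carrier Slc7a1 passed with TCM in IL-12 and, with all libraries, in neither cytokine comparison. It had 108, 93.4 and 102 CPM in IL-12 80%TCM and 142, 124 and 124 CPM in IL-12, against 113, 108 and 109 CPM in IL-2 80%TCM and 125, 126 and 103 CPM in IL-2. In IL-12 every library with TCM was below every library without it, while in IL-2 the groups overlapped. The level was 1.29-fold lower in IL-12 80%TCM than in IL-12 (log2 fold change -0.36 ± 0.08 SE, adjusted p = 0.0065), a call that held in all 19 alternatives. In IL-2 the log2 difference was -0.10 ± 0.08 (adjusted p = 0.46), and -0.19 (adjusted p = 0.033) without the replicate 3 pair. Without that pair it was also lower in IL-12 80%TCM than in IL-2 80%TCM (log2 fold change -0.15, adjusted p = 0.048). The difference between the TCM effects, -0.26 ± 0.12, did not pass (adjusted p = 0.34).

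Slc1a4 was the member with the largest response to TCM, at a low level. It had 4.95, 4.97 and 5.20 CPM in IL-12 80%TCM and 2.33, 2.52 and 2.47 CPM in IL-12, against 2.42, 2.36 and 5.26 CPM in IL-2 80%TCM and 1.76, 2.54 and 3.06 CPM in IL-2. The IL-12 80%TCM libraries were well above those of IL-12, and in IL-2 80%TCM replicate 3 alone reached their level. The gene rose 2.07-fold with TCM in IL-12 (log2 fold change 1.05 ± 0.27 SE, adjusted p = 0.012), and without replicate 1 of IL-12 it no longer passed (adjusted p = 0.05 after rounding). In IL-2 the log2 difference was 0.45 ± 0.28 (adjusted p = 0.32).

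How Slc1a4 compared with the IL-2 groups depended on the libraries and on the fit. Between IL-12 80%TCM and IL-2 80%TCM the log2 difference was 0.58 ± 0.27 (adjusted p = 0.11) with all libraries, 1.06 (adjusted p = 1.8e-05) without the replicate 3 pair, and 0.67 (adjusted p = 0.0016) in the fit blocked on replicate number. It was called in 7 of 18 alternatives. Among them, with all libraries, were edgeR with no filter on low counts (0.585, adjusted p = 0.018) and limma on log2(CPM + 1) (0.536, adjusted p = 0.048). The TCM effect in IL-12 minus that in IL-2 was 0.60 ± 0.39 (adjusted p = 0.53) with all libraries and 0.90 (adjusted p = 0.022) without those 2. Omission of replicate 3 of IL-2 80%TCM alone gave 1.06 between the cytokines with TCM (adjusted p = 0.00055) and 1.07 for the difference of the TCM effects (adjusted p = 0.025).

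Slc1a5, the glutamine exchanger, was the steadiest of the 10. It had 178, 176 and 176 CPM in IL-12 80%TCM and 192, 192 and 187 CPM in IL-12, against 177, 185 and 188 CPM in IL-2 80%TCM and 184, 192 and 176 CPM in IL-2. The groups overlapped except that all IL-12 80%TCM libraries were below those of IL-12. Its group means differed by at most 1.08-fold, and it passed in none of the comparisons of all 12 libraries by the TMM-scaled fit. Under upper-quartile scaling it was lower in IL-12 80%TCM than in IL-2 80%TCM (log2 fold change -0.13, adjusted p = 0.039). The log2 difference with TCM in IL-12 was -0.11 ± 0.05 (adjusted p = 0.10), and it was called once the replicate 3 pair was left out (log2 fold change -0.12, adjusted p = 0.012).

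**Figure D3:**
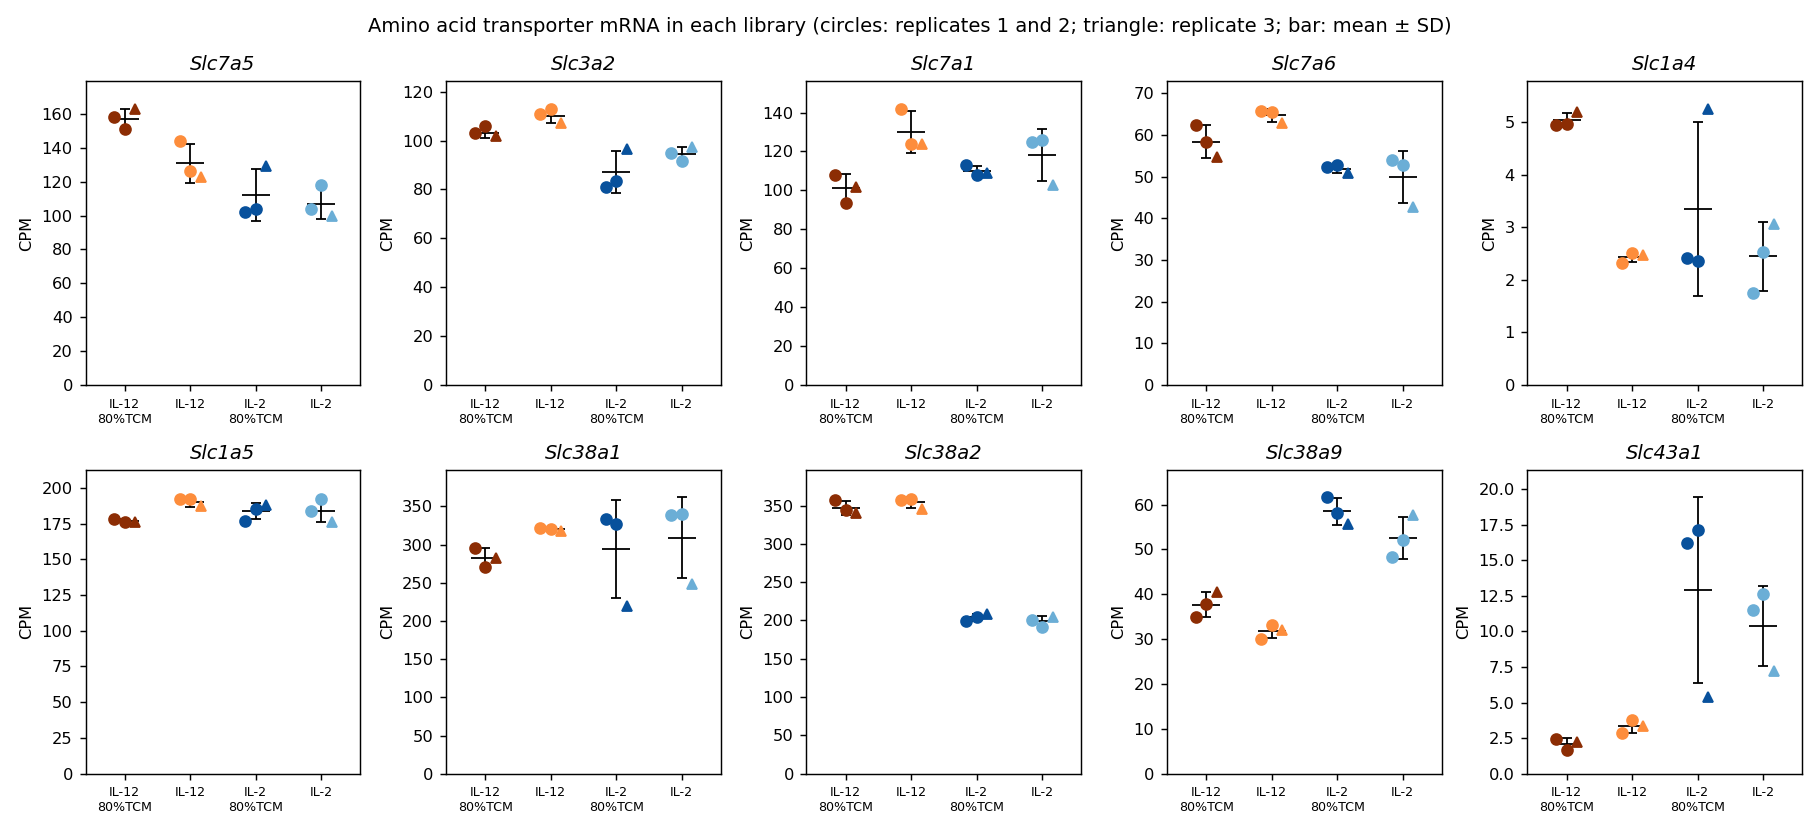
Level of each transporter mRNA in CPM in the 12 libraries, by group, with circles for replicates 1 and 2, triangles for replicate 3 and a bar for the mean ± SD (n = 3). For Slc38a2 the 6 IL-12 libraries (340 to 359 CPM) lie above the 6 IL-2 libraries (192 to 208 CPM), and for Slc38a1 and Slc43a1 the triangles of the IL-2 groups lie below their circles.

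Over the 10 genes, TCM in IL-2 gave 0 calls by edgeR, 0 with an unadjusted p below 0.05, and 0 by DESeq2 and by limma on the deposited CPM. When the replicate 3 pair was left out, 4 of the 10 were called in IL-2, Slc38a9 and Slc43a1 higher and Slc3a2 and Slc7a1 lower, beside 24.7% of all genes. The same fit, which estimates 1 spread per gene over all groups, called 9 of 10 with TCM in IL-12 from the same 6 IL-12 libraries, all but Slc38a2, beside 46.0% of all genes. The fit that blocks on replicate number in the IL-2 groups called 7 of 10 with TCM in IL-12, among them Slc7a6, Slc38a1 and Slc43a1, which fell (adjusted p = 0.049, 0.0037 and 0.015), beside 42.0% of all genes. It called 0 of 10 with TCM in IL-2, beside 27.9% of all genes. The difference between the TCM effects in IL-12 and IL-2 was called by edgeR, with no block, for 0 of 10 genes, beside 1.58% of all genes, with an unadjusted p below 0.05 for 1, and for 0 by DESeq2 and by limma. The blocked fit called it for Slc43a1, beside 10.5% of all genes. That difference was called for 3 genes, Slc7a5, Slc1a4 and Slc43a1, when the replicate 3 pair was left out, beside 13.2% of all genes.

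**Figure D4:**
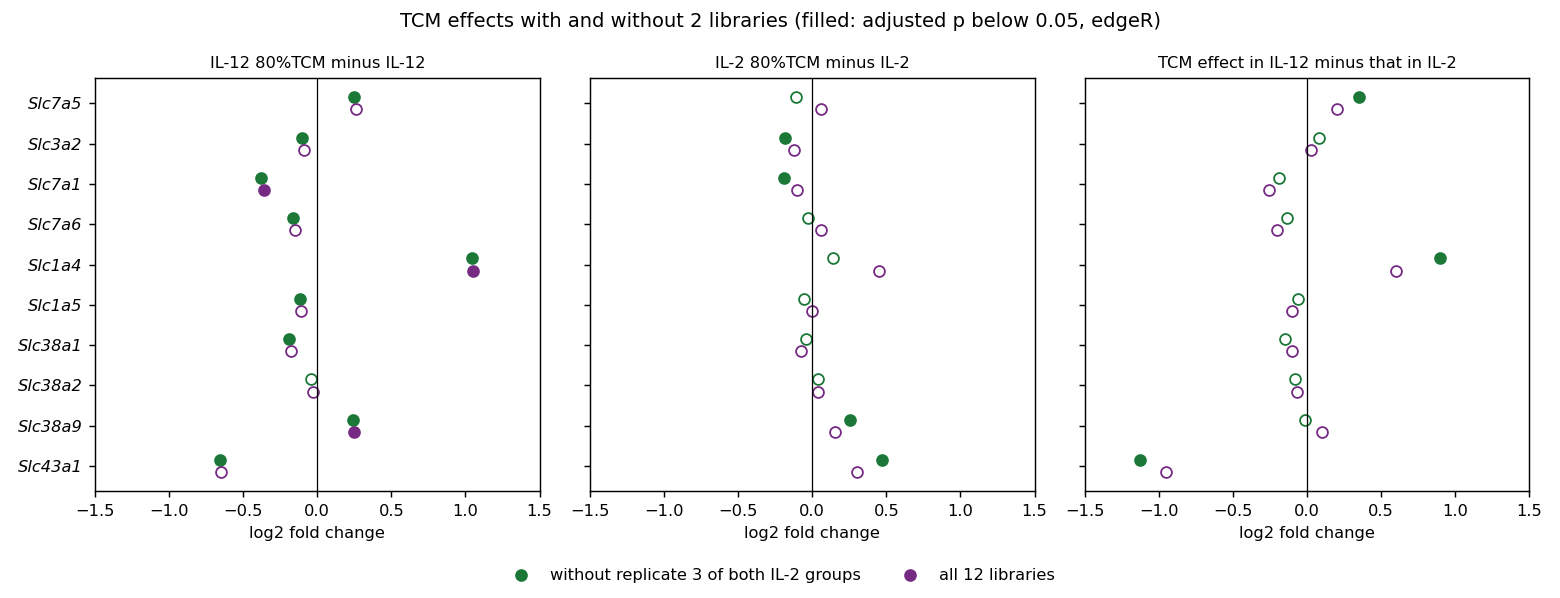
Log2 fold change with TCM in IL-12, with TCM in IL-2, and the difference between both effects, for each transporter gene, without replicate 3 of IL-2 80%TCM and of IL-2 (green) and with all 12 libraries (purple); filled points have an adjusted p below 0.05. Slc7a5, Slc1a4 and Slc43a1 are filled in the last panel only without these 2 libraries.

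The genes with the most similar profile over the 12 libraries were found by the root mean square difference of centred log2(CPM + 1), among named genes whose mean reached 10 CPM. For Slc7a5 the nearest was Yars, a tyrosyl-tRNA synthetase, at 0.057, while its partner Slc3a2 ranked 1165 among all 15896 other genes tested, at 0.184. Slc38a2 was nearest to Fam222b at 0.043, to Prkar1a, a regulatory subunit of protein kinase A, at 0.050 and to Lcp1, an actin-bundling protein of leukocytes, at 0.062. Slc38a9 was nearest to Rnf216 at 0.076, and Slc43a1 to Myb, a transcription factor of progenitors and memory T cells, at 0.196. The nearest gene was Mul1 for Slc3a2, Cstf2 for Slc7a1, Wdr70 for Slc7a6, Mapre3 for Slc1a4, Ezr for Slc1a5 and Pcyt1a for Slc38a1. For genes that hardly vary, such as Slc1a5, a small distance says little.

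Among other amino acid transporters of the plasma membrane and the lysosome, most calls between the cytokines were toward lower levels with IL-12. Of 48 genes, listed with earlier results of these data known, 47 were in the table and 21 were tested. Between IL-12 and IL-2, 0 of the 21 were higher and 8 lower with TCM, and 0 were higher and 10 lower without TCM. Of all genes tested 19.5% were higher and 19.4% lower with TCM, and 22.1% higher and 23.0% lower without TCM. In the fit with replicate number as a block, 1 was higher and 9 lower with TCM, and 2 were higher and 11 lower without TCM. Of all genes, that fit called 25.1% higher and 23.9% lower with TCM, and 27.9% higher and 28.1% lower without. With the replicate 3 pair left out, 20 were tested, with 1 higher and 9 lower with TCM and 2 higher and 10 lower without. All genes then split into 23.5% higher and 24.5% lower with TCM, and 26.3% higher and 26.0% lower without. The median log2 fold change of the list was -0.25 with TCM and -0.32 without, and that of all genes was -0.009 and -0.008.

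Slc6a19 (B0AT1), a sodium-dependent carrier of neutral amino acids best known from kidney and intestine, averaged 4.02 ± 0.781 CPM in IL-12 80%TCM and 38.7 ± 14.9 CPM in IL-2 80%TCM (SD, n = 3 each), and fell 9.59-fold (log2 fold change -3.26 ± 0.29 SE, adjusted p = 1.2e-06). Without TCM it averaged 3.94 ± 0.231 CPM in IL-12 and 30.4 ± 6.63 CPM in IL-2 (adjusted p = 2.2e-06). Slc16a10 (TAT1), which carries aromatic amino acids, averaged 1.87 ± 0.173 CPM in IL-12 and 7.22 ± 0.434 CPM in IL-2 and fell 3.89-fold (adjusted p = 1.1e-06). It also fell with TCM in IL-2, to 3.31 ± 0.586 CPM (2.17-fold, adjusted p = 0.0009). Ctns, the lysosomal cystine exporter, averaged 14.5 ± 0.50 CPM in IL-12 and 21.1 ± 0.324 CPM in IL-2 (1.45-fold lower, adjusted p = 5.6e-05). With TCM in IL-12, 2 of the 21 rose and 3 fell, and in IL-2 0 rose and 4 fell. The blocked fit gave 4 higher and 4 lower in IL-12 and 3 higher and 4 lower in IL-2. Without the replicate 3 pair, 3 of 20 tested rose and 5 fell in IL-12, and 3 rose and 4 fell in IL-2. In the fit with no block, 14.8% of all genes rose and 14.2% fell with TCM in IL-12. In IL-2, 6.73% rose and 7.82% fell in that fit. The blocked fit called 42.0% of all genes with TCM in IL-12 and 27.9% in IL-2, in either direction. These shares apply to the counts of the same fit, here and in the lists that follow. Slc36a1, a lysosomal amino acid exporter, was among the transporters that fell, with 24.9 ± 0.478 CPM in IL-2 80%TCM and 33.7 ± 2.31 CPM in IL-2 (adjusted p = 0.0025).

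Genes through which mTORC1 senses amino acids changed in both directions. All 38 listed were tested, and 11 were higher and 9 lower in IL-12 80%TCM than in IL-2 80%TCM, 9 higher and 12 lower in IL-12 than in IL-2. Under upper-quartile scaling these counts were 8 higher and 12 lower with TCM, and 6 higher and 17 lower without. With TCM 4 rose and 5 fell in IL-12, and 3 rose and 6 fell in IL-2. Without the replicate 3 pair 7 rose and 7 fell in IL-12, and 6 rose and 8 fell in IL-2. Castor1, a cytosolic arginine sensor that holds GATOR2 in check, and its homologue Castor2 rose with TCM in IL-12. Castor1 averaged 15.3 ± 0.982 CPM in IL-12 80%TCM and 6.99 ± 0.725 CPM in IL-12 (2.20-fold, adjusted p = 8.1e-05), and Castor2 62.7 ± 1.48 CPM and 30.7 ± 1.48 CPM in the same groups (2.04-fold, adjusted p = 0.00057). Rptor, the mTORC1 scaffold, fell 1.38-fold there (42.5 ± 1.53 CPM in IL-12 80%TCM and 58.8 ± 0.442 CPM in IL-12, adjusted p = 2.8e-05). Sesn1, of the leucine-sensing sestrin family, averaged 60.3 ± 2.89 CPM in IL-12 80%TCM and 108 ± 18.8 CPM in IL-2 80%TCM (adjusted p = 3.4e-05), and the GTPase gene Rragb 3.95 ± 0.673 and 8.28 ± 1.16 CPM in these groups (adjusted p = 0.00012).

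The enzymes that use the imported amino acids also split. Of 15 tested genes of arginine and polyamine metabolism, 6 were higher and 2 lower in IL-12 80%TCM than in IL-2 80%TCM, and 7 higher and 2 lower in IL-12 than in IL-2. Smox, which oxidises spermine, averaged 146 ± 2.29 CPM in IL-12 80%TCM and 14.5 ± 9.38 CPM in IL-2 80%TCM (10.1-fold higher, adjusted p = 6.6e-06, and 16-fold higher without replicate 3 of IL-2 80%TCM). Odc1, the first enzyme of polyamine synthesis, averaged 230 ± 7.43 CPM in IL-12 and 153 ± 16 CPM in IL-2 (1.51-fold higher, adjusted p = 2.2e-05), while Ass1, which makes argininosuccinate on the way to arginine, fell to 73.2 ± 2.78 CPM in IL-12, against 114 ± 4.88 CPM in IL-2 (adjusted p = 0.00049). With TCM 3 of the 15 rose and 5 fell in IL-12, and 1 rose and 4 fell in IL-2. Ass1 was among those that fell in each, 1.74-fold in IL-12 and 1.51-fold in IL-2 (adjusted p = 0.00034 and 0.0045).

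Of 11 tested genes of glutamine and asparagine metabolism, 0 were higher and 3 lower in IL-12 80%TCM than in IL-2 80%TCM, and 5 higher and 2 lower in IL-12 than in IL-2. Without the replicate 3 pair the counts with TCM were 2 higher and 4 lower, and in the blocked fit 2 and 5. Under upper-quartile scaling 0 were higher and 5 lower with TCM, and 3 higher and 2 lower without. With TCM 0 rose and 3 fell in IL-12, among them Glul, glutamine synthetase, with 90.2 ± 5.63 CPM in IL-12 80%TCM and 113 ± 2.62 CPM in IL-12 (adjusted p = 0.0024). In IL-2, 2 rose and 0 fell, and 5 and 1 in the blocked fit. Without the replicate 3 pair 2 rose and 5 fell with TCM in IL-12, and 3 rose and 1 fell in IL-2. Of 14 genes that break down branched-chain amino acids, 1 was higher and 4 lower in IL-12 80%TCM than in IL-2 80%TCM, and 2 higher and 5 lower in IL-12 than in IL-2. Under upper-quartile scaling 0 were higher and 7 lower with TCM, and 1 higher and 7 lower without. Mccc2, a subunit of the leucine breakdown enzyme methylcrotonyl-CoA carboxylase, averaged 5.83 ± 0.35 CPM in IL-12 80%TCM and 10.6 ± 1.43 CPM in IL-2 80%TCM (1.83-fold lower, adjusted p = 4.9e-05). With TCM 0 of the 14 rose and 2 fell in IL-12, and 1 rose and 1 fell in IL-2. The blocked fit gave 1 higher and 7 lower between the cytokines with TCM, 2 higher and 3 lower for TCM in IL-12, and 4 higher and 2 lower for TCM in IL-2. Without the replicate 3 pair 2 rose and 5 fell with TCM in IL-12, and 0 rose and 3 fell in IL-2.

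Of 13 tested methionine cycle genes, 3 were higher and 1 lower in IL-12 80%TCM than in IL-2 80%TCM, and 2 higher and 2 lower in IL-12 than in IL-2. Ahcy, which clears S-adenosylhomocysteine, averaged 389 ± 20.4 CPM in IL-12 80%TCM and 146 ± 4.57 CPM in IL-2 80%TCM (2.65-fold higher, adjusted p = 7.2e-10), and Adi1, of the methionine salvage pathway, 21.2 ± 0.552 CPM and 46.4 ± 3.12 CPM in these groups (2.19-fold lower, adjusted p = 1.4e-06). With TCM 2 rose and 3 fell in IL-12, and 2 rose and 2 fell in IL-2. The blocked fit gave 5 higher and 2 lower in IL-12 against IL-2, and 3 higher and 5 lower for TCM in IL-12. Without the replicate 3 pair 4 were higher and 4 lower in IL-12 80%TCM than in IL-2 80%TCM, and 3 rose and 6 fell with TCM in IL-12. Under upper-quartile scaling 3 were higher and 3 lower in IL-12 80%TCM than in IL-2 80%TCM. Of 12 tested mitochondrial amino acid carriers, 2 were higher and 1 lower in IL-12 80%TCM than in IL-2 80%TCM, and 4 higher and 2 lower in IL-12 than in IL-2. Under upper-quartile scaling 1 was higher and 1 lower with TCM, and 1 higher and 3 lower without. Of the mitochondrial carriers, the serine carriers of the sideroflexin family differed in sign. Sfxn1 averaged 136 ± 6.13 CPM in IL-12 and 96.5 ± 12.5 CPM in IL-2 (adjusted p = 0.00096), and Sfxn3 39.8 ± 3.55 CPM in IL-12 and 58.9 ± 1.62 CPM in IL-2 (adjusted p = 0.00013). With TCM 1 carrier rose and 2 fell in IL-12, and likewise in IL-2. Without the replicate 3 pair 1 rose and 4 fell in IL-12.

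Among 15 tested genes of a list of regulators around amino acid transport and stress, 7 were higher and 5 lower in IL-12 80%TCM than in IL-2 80%TCM. Between IL-12 and IL-2, 6 were higher and 5 lower in IL-12. Myc, which drives Slc7a5 and other transporter genes in activated T cells, averaged 155 ± 2.42 CPM in IL-12 80%TCM and 84.7 ± 12.4 CPM in IL-2 80%TCM (1.83-fold higher, adjusted p = 3.9e-06). Hif1a, the oxygen-sensitive factor, averaged 640 ± 17.9 CPM in IL-12 80%TCM and 249 ± 49.3 CPM in IL-2 80%TCM (2.58-fold higher, adjusted p = 3.9e-06). Epas1 ran the other way, with 2.99 ± 0.734 CPM in IL-12 80%TCM and 15.5 ± 6.98 CPM in IL-2 80%TCM (5.18-fold lower, adjusted p = 0.00024). Trib3, a target of the amino acid stress factor ATF4, averaged 4.05 ± 0.508 CPM in IL-12 and 12.9 ± 1.15 CPM in IL-2 (3.22-fold lower, adjusted p = 2.2e-06). With TCM 5 of the 15 rose and 2 fell in IL-12, with Txnip, an arrestin-like protein, 1.89-fold higher (701 ± 36.4 CPM in IL-12 80%TCM and 371 ± 23.5 CPM in IL-12, adjusted p = 9.5e-06). In IL-2, 1 rose and 2 fell, and 4 and 4 in the blocked fit.

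The medians of these lists in the comparison of IL-12 80%TCM with IL-2 80%TCM were, on the log2 scale, 0.37 for the regulators, 0.19 for arginine and polyamine metabolism, 0.02 for the mitochondrial carriers, -0.01 for the methionine cycle, -0.02 for mTORC1 sensing, -0.14 for glutamine and asparagine metabolism and -0.20 for branched-chain breakdown. Without TCM the same medians were 0.08, 0.19, 0.05, 0.05, -0.05, 0.16 and -0.16 in that order. Those of all genes were -0.009 with TCM and -0.008 without, and -0.083 and -0.088 under upper-quartile scaling. The median of glutamine and asparagine metabolism differed in sign between the comparisons, while that of the methionine cycle stayed near that of all genes.

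**Figure D5:**
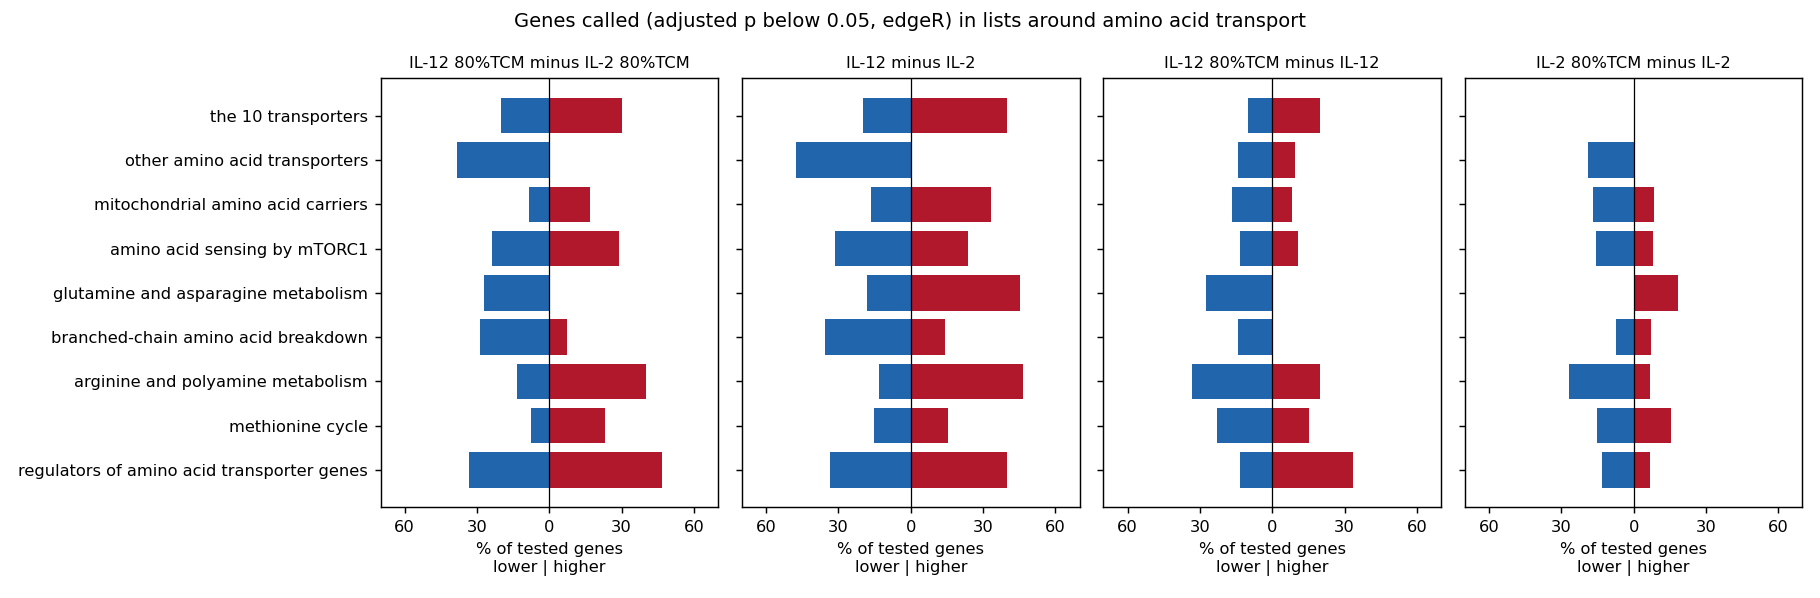
Share of the tested genes of each list that were called higher (red, to the right) or lower (blue, to the left) in the comparisons of IL-12 80%TCM with IL-2 80%TCM, IL-12 with IL-2, IL-12 80%TCM with IL-12, and IL-2 80%TCM with IL-2 (adjusted p below 0.05, edgeR, all 12 libraries). Of the other amino acid transporters 8 and 10 of 21 were lower in the cytokine comparisons and 0 higher, while the 10 transporters have bars on both sides.

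Summed markers listed for other cell types moved with the groups at low levels. The summed level of 6 platelet genes was 24.2 to 30.5 CPM in IL-12 80%TCM, 58.8 to 69.5 CPM in IL-12, 43.2 to 56.0 CPM in IL-2 80%TCM and 106 to 128 CPM in IL-2, with Gp1bb at 0 and 5 of 5 tested genes lower with TCM and with IL-12. The sum of 5 NK cell genes was 20.5 to 25.9 CPM in IL-12 80%TCM and 26.3 to 29.2 CPM in IL-12, against 51.5 to 68.9 CPM in IL-2 80%TCM and 56.3 to 60.4 CPM in IL-2. That of 6 B cell genes was 8.64 to 10.2 CPM in IL-12 80%TCM and 6.51 to 8.12 CPM in IL-12, against 17.3 to 20.3 CPM in IL-2 80%TCM and 16.7 to 20.3 CPM in IL-2. Myeloid genes, 7 in all, summed to 10.1 to 11.1 CPM in IL-12 80%TCM, 6.36 to 8.10 CPM in IL-12, 10.8 to 18.1 CPM in IL-2 80%TCM and 9.38 to 13.0 CPM in IL-2. The sum of 4 CD4 T cell genes was 29.2 to 33.1 CPM in IL-12 80%TCM, 16.2 to 17.2 CPM in IL-12, 19.9 to 33.6 CPM in IL-2 80%TCM and 17.6 to 23.5 CPM in IL-2. The NK cell list holds Eomes and the CD4 T cell list Zbtb7b, which CD8 T cells can also express. These sums therefore do not measure other cells alone. The part of other cells in the differences between IL-12 and IL-2, of Slc43a1, Slc38a9 and Slc6a19 among others, was not tested.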

How the data were processed

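RNA from 12 libraries, 3 in each of 4 groups, was made into cDNA with a modified NEBNext Ultra II directional protocol, per the labels' protocols, which also speak of livers of bortezomib-treated mice that no sample label names. Per the submitters' processing notes the authors used STAR 2.7.7a, edgeR and GRCh38, although the deposited gene identifiers are from mouse. The counting tool and its use of strand are not given in the sources used here. Raw read counts were deposited by the authors for 55487 gene identifiers in all 12 libraries and, per sample, a CPM signal for 32285 genes. Within a library the deposited count and the deposited CPM signal had 1 constant ratio, to a relative spread of at most 2.4e-14.

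Counts were tested with edgeR 4.0.16 in R 4.3.3: TMM scaling, filterByExpr (minimum count 10, minimum total count 15), a quasi-likelihood fit of the 4 group means and contrasts with Benjamini-Hochberg adjustment over 15897 genes and a threshold of 0.05. The SE of a log2 fold change is its absolute value over the square root of the F statistic. It thus rests on a spread estimated over all 4 groups, not on the 2 groups compared. The fit was tested on simulated data with known folds. The counting depth of 19500568 to 49638920 counts per library limits precision for the scarcest genes. Alternatives were DESeq2 1.42.0, limma 3.58.1 on log2(CPM + 1), other scalings, filters and pseudocounts, each library left out in turn, replicate 3 of IL-2 80%TCM and of IL-2 left out together, and replicate blocks. Same-numbered libraries of IL-2 80%TCM and IL-2 correlated in their deviations from the group mean (0.28, 0.25 and 0.57), which pairs them by the rule of more than 0.1. Libraries 1 and 2 of these groups correlated as much across numbers (0.30 and 0.27), so the number sets apart replicate 3 alone. All other same-numbered pairs lay between -0.04 and 0.07. Blocked values stand beside transporter results whose call they changed and list counts they moved by over 1.5 times.

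The members and gene lists were chosen with earlier results of these data known. Named list genes are up to 3 called genes per list and comparison with the largest fold change and at least 5 CPM, of which a selection is printed. Some listed genes are counted in their lists but not reported here by name. Lengths are exon unions, so a gene with rarely used exons has a lowered level per kilobase. Protein sequences were not analysed here.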

Additional observations from a re-analysis of the deposited data

Results flagged for a closer look

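None of the 10 transporters had a TCM effect that differed between the cytokines by the test of the difference itself in the edgeR fit of all 12 libraries with the filter on low counts and no block. Slc43a1 did with replicate number as a block in the IL-2 groups (-0.89 on the log2 scale, adjusted p = 0.025) and with no filter on low counts (-0.98, adjusted p = 0.0023). Ahcy, of the methionine cycle, was among the listed genes of amino acid metabolism that did in that first fit.

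Ahcy, which clears S-adenosylhomocysteine, had 410, 386 and 369 CPM in IL-12 80%TCM and 371, 361 and 358 CPM in IL-12, against 150, 148 and 141 CPM in IL-2 80%TCM and 183, 186 and 164 CPM in IL-2. The effect of TCM was 0.10 ± 0.06 on the log2 scale in IL-12 and -0.28 ± 0.06 in IL-2, and the difference was 0.38 ± 0.08 (edgeR, adjusted p = 0.038). Leaving out 1 library at a time ended this call in 10 of 12 cases, with adjusted p-values up to 0.16 and differences of 0.32 to 0.43. Without replicate 3 of IL-2 80%TCM and of IL-2 the adjusted p was 0.0001.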

How the results depend on the processing

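No result changed its direction past the threshold in any alternative run. With replicate 3 of IL-2 80%TCM and of IL-2 left out together, 9 transporters were called with TCM in IL-12, beside 46.0% of all genes. With TCM in IL-2 4 were called, beside 24.7%. Between IL-12 80%TCM and IL-2 80%TCM 8 were called, beside 48.0%, and 3 for the difference of the TCM effects, beside 13.2%. All genes called were 7332, 3936 and 2105 for TCM in IL-12, TCM in IL-2 and that difference. Replicate number was also used as a block in the IL-2 groups alone, where it sets apart only replicate 3. With that block, 7 transporters were called with TCM in IL-12 and 1 for the difference, beside 42.0% and 10.5% of all genes. Of all genes, 4442 were then called with TCM in IL-2 and 1668 for the difference. With only the groups compared in the fit, 8 transporters and 7133 genes (48.9%) were called with TCM in IL-12, and 587 genes with TCM in IL-2. With no filter on low counts, 6 transporters were called with TCM in IL-12, beside 14.9% of the 32285 genes then tested. For the difference that run called 1 transporter and 779 genes (2.41%), and DESeq2 called 550 genes. The cause of these shifts was not tested. The median log2 fold change of the 10 moved to -0.076 with TCM in IL-12, to -0.018 between IL-12 80%TCM and IL-2 80%TCM and to 0.015 between IL-12 and IL-2 under upper-quartile scaling, to -0.091 between IL-12 80%TCM and IL-2 80%TCM with genes of at least 5 CPM, which drops Slc1a4, and to 0.04 there and -0.033 with TCM in IL-2 without both libraries. Leaving out 1 library at a time gave 2 to 3 transporters with TCM in IL-12, 0 to 2 with TCM in IL-2, 5 to 6 in each cytokine comparison and 0 to 2 for the difference. The medians were then -0.128 to -0.101, -0.018 to 0.075, 0.02 to 0.099 with TCM and 0.065 to 0.165 without, and -0.115 to -0.038 for the difference. All genes called were 2931 to 3510, 1292 to 2938, 4910 to 6268, 5595 to 6673 and 105 to 1164. Counting error matters most for Slc43a1 and Slc1a4, with as few as 32 and 40 counts in a library. Standard errors from a fit with 3 libraries in each of 4 groups may not cover differences between animals.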
